A study of Sus scrofa with 46 samples.

Results

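In a set of 46 liver RNA libraries from newborn piglets, 3 libraries stood apart from all the others, those of pigs 38, 39 and 46. They were selected on measured values. Over the 13852 genes with 10 or more counts in at least 10 libraries, each library's log2(CPM + 1) values (CPM, counts scaled to a common library total) were correlated with those of the other 45. The 3 libraries had the lowest median Pearson r, and the other 43 libraries lay above a wide gap. Since every gene entered this choice, the levels of the 3 libraries beside the 43 are given as a description, without a test.

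Each library came from the liver of 1 piglet killed 72 hours after birth. Piglets were offspring of Danish Landrace × Danish Yorkshire sows and Duroc boars, were graded as intrauterine growth restricted (IUGR) or normal at birth by head shape, and did or did not get the energy supplement Piggy Boost. The groups held 13 IUGR treated, 10 IUGR untreated, 12 normal treated and 11 normal untreated libraries. Pigs 39 and 46 were headed as IUGR treated and pig 38 as IUGR untreated. Per the study's methods, treated and control piglets of both sizes were taken from the same sow. The labels give neither litter nor sampling day, and the RNA integrity of single samples was not analysed here.

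The liver of a newborn piglet makes most plasma proteins, clears ammonia through the urea cycle and takes over blood glucose control from the placenta. It still holds blood-forming cells, above all of the red cell line. Genes for the subunits of one machine, such as the ribosome or the proteasome, are normally transcribed in proportion, so their levels move together between livers. Bulk libraries give shares of a total, and fewer cells of a type cannot be told apart from less RNA per cell.

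The headings of the count table leave a doubt about which piglets the 3 libraries came from. The headings run through the 4 groups in blocks. With the same 46 numbers laid over the columns in plain text order, the 3 columns would fall under pig 20 and pig 30, both normal untreated, and pig 31, normal treated. The study reports PDK4, CEL, CXCL12, SDF2L1 and ENHO as changed in IUGR livers, with PDK4, CEL and SDF2L1 also measured by qPCR. In a DESeq2 comparison of the 21 untreated libraries, 0 of these 5 genes passed an adjusted p of 0.05 under the headings as deposited. In text order 5 of 5 passed. Over all genes 238 passed under the deposited headings and 47 in text order. That order was noticed through an outcome, so it was used for nothing else, and groups below are as headed. The levels of the 3 libraries beside the 43 do not depend on it. As headed, 3 of 23 IUGR libraries and 0 of 23 normal libraries were atypical (two-sided Fisher's exact test, p = 0.233).

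The median r was 0.851 in pig 38, 0.813 in pig 39 and 0.774 in pig 46, against 0.961 to 0.974 in the other 43 (median 0.969). Pig 38 was the library just inside the gap, and pig 5, at 0.961, the library just outside it. The 3 were much more like each other than like the rest, with a pairwise r of 0.976 between pigs 38 and 39, 0.960 between pigs 39 and 46 and 0.955 between pigs 38 and 46. Pairs among the 43 had an r of 0.943 to 0.985.

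Simple measures of sequencing did not set all 3 apart. Totals were 17583188 counts in pig 38, 18870256 in pig 39 and 19340218 in pig 46, against 15036591 to 17963109 in the 43, so pigs 39 and 46 exceeded every other library and pig 38 did not. Genes with any count numbered 15894, 15976 and 15871 in the 3, inside the 15729 to 16200 of the 43. The 10 most abundant genes took 26.3%, 21.4% and 20.0% of counts, against 20.8% to 30.1%. The part of total count in the differences was not tested.

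**Figure D1:**
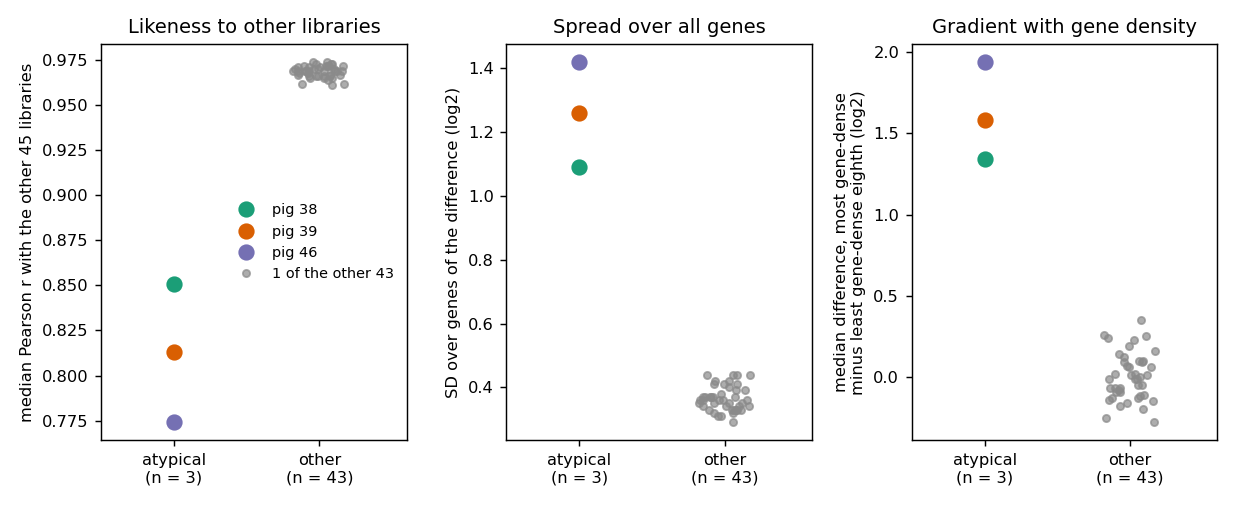
Each point is 1 library, with pigs 38, 39 and 46 on the left and the other 43 on the right. The panels plot the median Pearson r with the other 45 libraries, the SD over genes of the log2(CPM + 1) difference from the median of the 43, and the median difference of genes in the most gene-dense of 8 bins minus that in the least dense. The 3 libraries lie outside the range of the 43 in each panel, and pig 46 is farthest out in each.

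Per gene, a library was called above or below when it lay beyond the highest or the lowest of the 43 others. Pig 38 was above the 43 at 3107 genes (22.4% of 13852) and below at 4190 (30.2%), pig 39 above at 4287 (30.9%) and below at 4240 (30.6%), and pig 46 above at 4101 (29.6%) and below at 4843 (35%). All 3 were above at 2343 genes (16.9%) and below at 3702 (26.7%), together 43.6% of the genes. These shares differed with level. They were 3.92% and 6.75% at a median of 1.61 CPM or less in the 43, and 21% and 35.4% from 76.7 CPM. Only 21 genes were above in one of the 3 and below in another. Held against the remaining 42 in the same way, the 43 were above at a median of 232 genes (52 to 2277, the highest in pig 5) and below at a median of 193 (65 to 1485, the highest in pig 42).

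The differences were lopsided. Differences are those of log2(CPM + 1) from the median of the 43, so that 1 is about a 2-fold change of a well-measured gene. Among the 3702 genes with all 3 below, the mean difference of the 3 had a median of -1.77 and reached -4.93 (in a gene with only a LOC identifier), and 328 genes were at -3 or lower. Among the 2343 genes with all 3 above, the median was 1.02, the highest was 1.91 and 0 genes reached 3. With a margin of 1 on the log2 scale beyond the range of the 43, 1603 genes stayed below in all 3 and 0 above. The SD of the differences over all genes was 1.09 in pig 38, 1.26 in pig 39 and 1.42 in pig 46, against 0.29 to 0.44 in the 43. The median difference over all genes stayed close to 0 (0.02, 0.12 and -0.02, against -0.18 to 0.25).

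The lowest genes came from many kinds of process. The ubiquitin-conjugating enzyme gene UBE2D3 had 1.99, 0.848 and 1.96 CPM in pigs 38, 39 and 46, against 36.6, 51.2 and 64.2 CPM as the lowest, median and highest of the 43. LIN7C, a scaffold gene of cell junctions, had 4.83, 2.01 and 1.29 CPM, against 45.0, 68.4 and 91.5 CPM. For both the highest of the 3 lay far under the lowest of the 43.

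The other low genes named by rule had a mean difference between -4.29 and -4.06. IFI44L is an interferon-induced gene, and RPL9 and RPL22 encode proteins of the large ribosomal subunit. THOC2 (export of messenger RNA), COPS2 (the COP9 signalosome), EIF3E (translation initiation), ABCE1 (ribosome recycling), RIF1 (replication timing), RAB1A (traffic between endoplasmic reticulum and Golgi), NUCB2 (a calcium-binding precursor of nesfatin), BCLAF1 and NOXRED1 completed the set. THOC2 had 4.27, 1.85 and 4.29 CPM, against 65.8, 79.2 and 105 CPM in the 43. These 14 genes were named among those with all 3 libraries below every other, and pig 39 was the lowest of the 3 for 10 of them.

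The highest genes differed by less. GGT1, a gamma-glutamyltransferase that breaks down glutathione, had 91.1, 89.8 and 129.7 CPM, against 4.93, 26.8 and 71.2 CPM in the 43, a mean 3.87-fold above the median. NFKBIA, the inhibitor that holds NF-kappa B in the cytoplasm, had 67.3, 56.1 and 79.5 CPM, against 9.90, 18.4 and 49.8 CPM. ASL, the argininosuccinate lyase of the urea cycle, had 218, 257 and 313 CPM, against 58.7, 87.1 and 159 CPM. These genes were named among those with all 3 above the 43 (16.9% of all genes), so the lack of overlap is set by that choice. The gap to the highest of the 43 was smaller than for the low genes.

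Others of the 15 highest named genes were the liver transcription factor gene CEBPB, the actin crosslinker gene FLNA, the small GTPase gene RRAS, the epithelial gene S100A14 and the transcription factor genes DEAF1 and TFCP2L1. FERMT3, an integrin activator of blood cells, FCN1, a ficolin of monocytes, and MCT7 and C2H11orf96 were also among them. The T cell co-stimulator gene ICOSLG had 11.3, 10.0 and 50.1 CPM, against 2.02, 4.64 and 9.60 CPM in the 43. The kinase gene DMPK had 13.6, 18.0 and 55.4 CPM, against 4.93, 6.81 and 11.3 CPM. In both, pig 46 stood well above pigs 38 and 39.

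**Figure D2:**
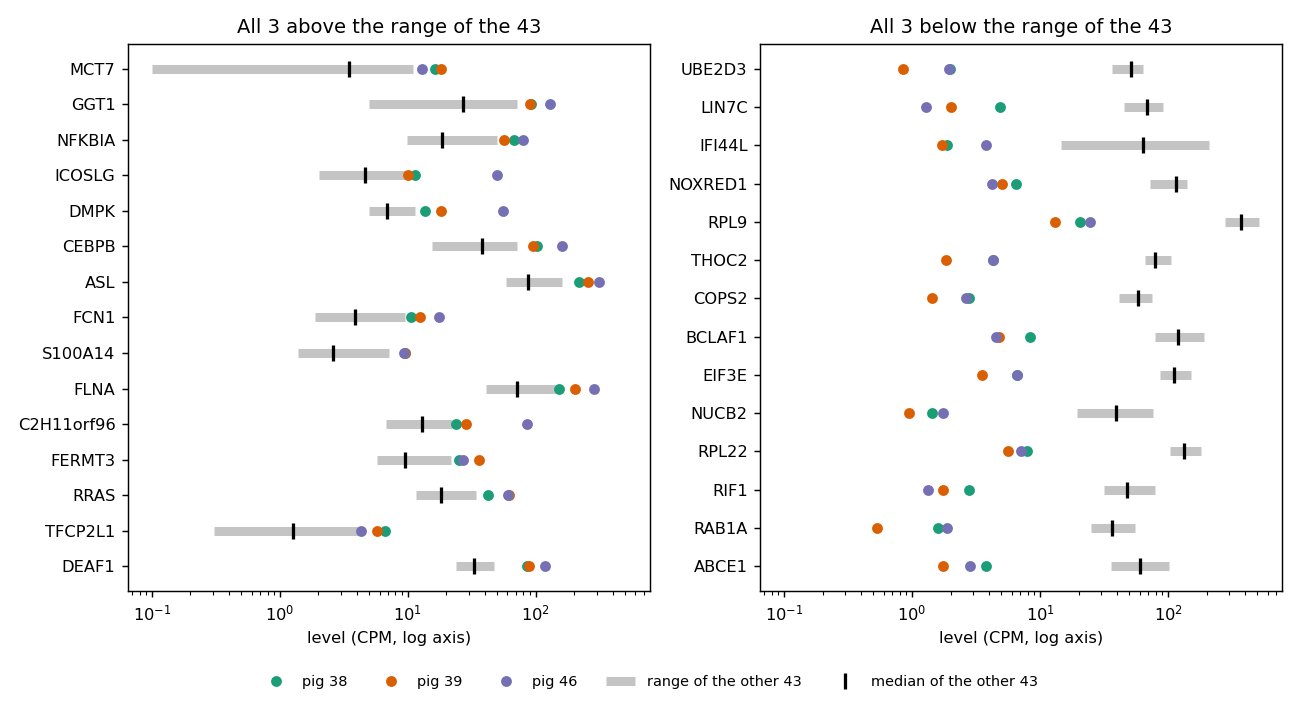
Level in CPM on a log axis of 15 named genes with a high (left) and 14 with a low (right) mean difference among those with all 3 libraries outside the range. Coloured points are pigs 38, 39 and 46, grey bars the range and black ticks the median of the other 43, with a lowest value of 0 (MCT7) drawn at 0.1 CPM. The low genes lie more than 10-fold from the bars at most points, and most points of the high genes lie nearer to them, with pig 46 farther out for ICOSLG, DMPK and C2H11orf96.

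The plasma proteins that hepatocytes secrete lay on both sides, with counts near those of genes at large. Of 30 such genes, 5 were above the 43 in all 3 libraries and 7 below, beside 16.9% above and 26.7% below over all genes. Their median mean difference was 0.41, against 0.07 over all genes. Albumin (ALB), the main plasma protein, had 30830, 20993 and 27836 CPM, against 36045, 101717 and 137211 CPM in the 43. APOA1, the main protein of high-density lipoprotein, had 8689, 9559 and 9296 CPM, against 3140, 4455 and 6104 CPM. APOB, the backbone of very-low-density lipoprotein, had 1667, 1276 and 730 CPM, against 5942, 9728 and 13739 CPM. So in the 3 libraries APOA1 was above and APOB below every one of the 43.

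Among the 20 genes with the highest median CPM, 2 were above in all 3 libraries (APOA1 and IGF2, the fetal growth factor) and 6 were below (ALB, AFP, FGB, APOB, FGG and GC). AFP, the fetal counterpart of albumin, had 10126, 4495 and 6058 CPM, against 10468, 16276 and 23316 CPM. IGF2 had a difference of 0.97, 0.95 and 0.89. Transferrin (TF), haptoglobin (HP) and ORM1 each lay within the range of the 43 in at least 1 of the 3. The copper carrier CP had 258, 149 and 64.3 CPM, against 546, 2238 and 3915 CPM, and had the lowest mean difference of the 19 measured genes on the acute phase list.

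The fibrinogen genes showed the split within one protein and one locus. Their products FGA, FGB and FGG form fibrinogen in equal numbers, and the genes lie side by side on chromosome 8 of Sscrofa11.1. FGG spans 74553040 to 74562151, FGA 74574870 to 74584202 and FGB 74598170 to 74607409. FGA had a difference of -0.38, -0.63 and -1.21 in pigs 38, 39 and 46, and lay inside the range of the 43 in pig 38. FGB had -1.10, -1.49 and -2.20. FGG had -2.62, -3.33 and -3.99, lower than both neighbours in each library. FGG counts were 1484, 906 and 577 CPM, against 5938, 9154 and 14459 CPM in the 43.

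The ribosome gave the clearest view of subunits drawn apart. Of 78 cytosolic ribosomal protein genes, 28 were above the 43 in all 3 libraries and 24 below, beside 16.9% and 26.7% of all genes. Their median mean difference, 0.14, hid a range of -4.24 to 1.25. The SD of the differences over these genes was 1.32 in pig 38, 1.59 in pig 39 and 1.65 in pig 46, against 0.07 to 0.17 in the 43. The 43 libraries therefore kept the ribosomal protein genes in near-constant proportion, and the 3 did not.

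RPL9 had 20.5, 13.2 and 24.4 CPM, against 280.1, 372 and 511 CPM in the 43. RPS3A, of the small subunit, had 31.6, 18.3 and 30.5 CPM, against 351, 443 and 621 CPM. RPL8, of the large subunit, had 614, 776 and 1083 CPM, against 275, 352 and 538 CPM. Large and small subunit genes occurred on both sides, such as RPL22, RPS24, RPL7 and RPS27A below and RPS14, RPL13 and RPS9 above.

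The proteasome and the respiratory chain were drawn apart in the same way. Of 31 proteasome genes, 4 were above in all 3 libraries and 12 below, beside 16.9% and 26.7% of all genes. Their SD was 1.32, 1.51 and 1.65, against 0.08 to 0.21 in the 43. PSMA4, of the core particle, had 3.01, 1.8 and 3.98 CPM, against 41.7, 54.7 and 77.4 CPM. PSMD3, of the regulatory particle, had 128, 150.3 and 175 CPM, against 62.7, 80.6 and 108 CPM. The 2 genes lay on opposite sides of the 43 in every one of the 3 libraries.

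Of 39 nuclear-encoded respiratory chain genes, 7 were above in all 3 and 14 below, beside 16.9% and 26.7% of all genes. Their SD was 1.30, 1.47 and 1.55, against 0.10 to 0.22. UQCRB, of complex III, had 4.83, 3.92 and 6.93 CPM, against 72.4, 94.4 and 135 CPM. COX6C, of complex IV, had 5.86, 4.61 and 4.39 CPM, against 67.7, 86.4 and 122 CPM. NDUFB7, of complex I, had 57.8, 70.8 and 88.8 CPM, against 22.0, 29.9 and 54.1 CPM, although NDUFB3 of the same complex had a mean difference of -2.90. No mitochondrially encoded gene was among the genes analysed.

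**Figure D3:**
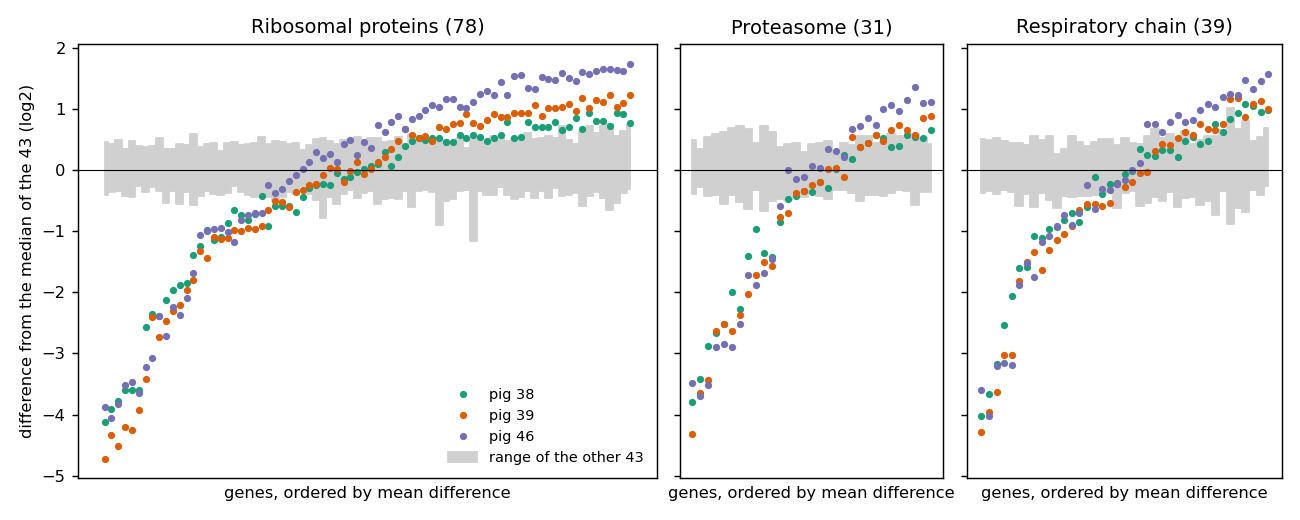
Difference of log2(CPM + 1) from the median of the 43 for the 78 ribosomal protein, 31 proteasome and 39 respiratory chain genes, each ordered by the mean of the 3 libraries. Coloured points are pigs 38, 39 and 46 and the grey band is the range of the other 43. The 3 libraries run together from far below the band to above it in each complex.

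The sides differed in where and how long their genes are. The 28 ribosomal protein genes above the range had a median of 31.0 protein-coding gene starts within 500000 bases, and the 24 below had 10.0. In the proteasome list these medians were 33.0 and 9.5, and in the respiratory chain list 25.0 and 7.0. Median gene length was 2713 bases for the ribosomal protein genes above and 4272 for those below, and 9451 and 24126 bases for the proteasome genes.

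The same held across the genome. Genes were put into 8 bins by the number of protein-coding gene starts within 500000 bases on either side (RefSeq, Sscrofa11.1). In the sparsest bin, with 0 to 5 starts, the median difference was -0.71, -0.68 and -1.01 in pigs 38, 39 and 46, and 2.71% of its 1847 genes were above in all 3 and 42.3% below. In the densest, with 40 to 83 starts, it was 0.62, 0.90 and 0.93, and 41.5% of its 1572 genes were above and 3.50% below. The share above increased and the median climbed with each bin. Densest minus sparsest, the gap was 1.34 in pig 38, 1.58 in pig 39 and 1.94 in pig 46, against -0.28 to 0.35 in the 43.

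**Figure D4:**
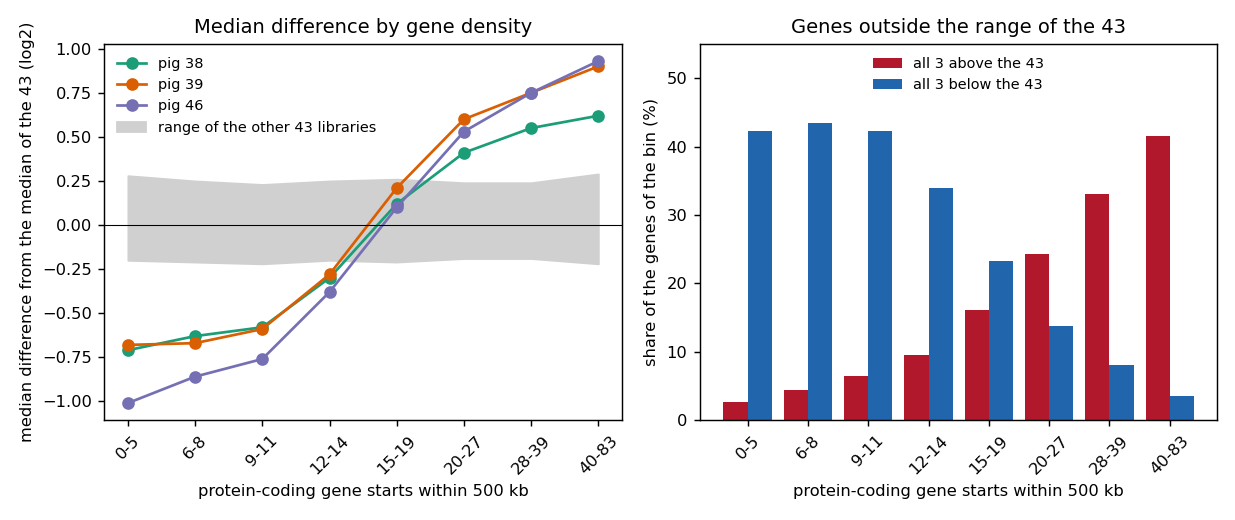
Left, median difference of log2(CPM + 1) from the median of the 43 by gene density, for pigs 38, 39 and 46 and as a grey band for the range of medians of the other 43 libraries. Right, the share of genes in each bin with all 3 above or all 3 below the 43. The lines of the 3 pass from below the band in the 4 sparsest bins to above it in the 3 densest.

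The chromosomes differed too. Median mean differences were lowest on chromosome 8 (-0.75, 495 genes), 16 (-0.74), 15 (-0.66) and 1 (-0.58), where the median gene had 8.0 or 9.0 neighbouring starts. They were highest on chromosome 12 (0.65, 840 genes) and 2 (0.62, 1275 genes), with 26.0 and 29.0 starts, and on unplaced sequence (0.77). On chromosome 8 the median was -0.71, -0.64 and -0.92 in the 3 libraries, against -0.17 to 0.26 in the 43.

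Gene length ran alongside. Of the shortest genes, with a span of 374 to 5734 bases, 25.9% were above in all 3 libraries and 7.85% below. Of genes spanning 68338 to 127173 bases, 7.45% were above and 40% below. In the longest bin, from 127247 bases, 4.85% were above and 31.2% below, and its median of -0.45 was nearer to 0 than the -0.53 of the bin before it. Density and span are related to each other and to base composition, which was not analysed here, and their parts cannot be told apart in these values. The fibrinogen genes, whose density was the same (7.0) and whose lengths were alike, were all below the median of the 43 in each of the 3 libraries, by unlike amounts.

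Gene families that share a symbol were looked at after values were seen. Of 34 genes with a symbol in CEP (centrosomal proteins), 0 were above in all 3 libraries and 25 below, with a median mean difference of -1.33. CEP290, of the ciliary transition zone, had 0.512, 0.587 and 0.416 CPM, against 5.58, 9.16 and 16.6 CPM. Of 44 USP genes (deubiquitinases), 7 were above and 21 below. Over all genes 16.9% were above and 26.7% below. Other families had positive medians. Of 32 COL genes 4 were above and 1 below (median mean difference 0.49), and of 42 RPS genes 19 were above and 14 below (0.58).

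Splicing genes had the largest share below the range among the lists with 4 or more genes measured. Of 25 splicing and nuclear speckle genes, 18 were below in all 3 libraries and 0 above, beside 26.7% and 16.9% of all genes. The list medians were -1.18, -1.35 and -1.82, against -0.26 to 0.24 in the 43. CLK1, a kinase of splicing factors, had 6.77, 4.45 and 4.14 CPM, against 24.2, 42.3 and 61.3 CPM. SRSF11, a splicing regulator, had 17.4, 14.0 and 11.2 CPM, against 70.4, 96.8 and 138 CPM. On the other side of 0 were SRRM2, with a mean difference of 0.63, and LUC7L, with 0.61.

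Mitosis genes had low medians too, but inside the wide range of the 43. Of 29, 10 were below in all 3 libraries and 1 above, beside 26.7% below and 16.9% above over all genes. The medians were -1.28, -1.08 and -1.54, against -1.67 to 0.92 in the 43. HMMR, a spindle protein gene, had a mean difference of -3.55. CDK1, the kinase that starts mitosis, had 1.71, 1.17 and 1.76 CPM, against 7.92, 27.4 and 67.0 CPM. DNA replication genes, of which 8 of 33 were below and 0 above, had positive medians (0.34, 0.47 and 0.35).

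Metabolic pathways had members on both sides, as did genes at large (16.9% above and 26.7% below). Of 18 glycolysis genes, 6 were above in all 3 libraries and 2 below, with medians of 0.54, 0.70 and 1.18, against -0.34 to 0.45 in the 43. PFKL, the liver phosphofructokinase, had 112, 96.6 and 138 CPM, against 35, 49.9 and 76.0 CPM. LDHA, the lactate dehydrogenase subunit, had 60.6, 35.1 and 49.7 CPM, against 100.3, 199 and 414 CPM. GAPDH, ENO1, TPI1, ALDOA and PKM were the other genes above, and PGK1 was the other below.

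Of 22 cholesterol synthesis genes, 6 were above and 3 below, beside 16.9% and 26.7% of all genes. DHCR7, which makes the last step to cholesterol, had 268, 266 and 421 CPM, against 64.8, 135 and 221 CPM. MSMO1, the sterol C4-methyl oxidase, had 23.4, 5.41 and 23.6 CPM, against 91.5, 205 and 590 CPM. Of 27 fatty acid oxidation genes, 4 were above and 6 below, shares near those of all genes. ACADM, the medium-chain acyl-CoA dehydrogenase, had 49.1, 25.4 and 34.2 CPM, against 272, 436 and 709 CPM, a mean 12-fold below the median of the 43.

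Within the urea cycle, of 24 genes with amino acid catabolism, 5 were above and 4 below, ASL being above and OTC below. Over all genes 16.9% were above and 26.7% below. OTC, ornithine transcarbamylase, had 121, 106 and 91.2 CPM, against 129, 302 and 433 CPM. Of 14 bile acid genes, 2 were above and 4 below. NR1H4, the bile acid receptor FXR, had 16.3, 12.8 and 7.91 CPM, against 64.5, 90.3 and 123 CPM. SLCO1B3, an organic anion uptake carrier, had 183, 121 and 166 CPM, against 497, 1082 and 1926 CPM.

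The growth axis had its ligands IGF2 and IGF1 on opposite sides. Of 18 IGF and growth hormone axis genes, 3 were above in all 3 libraries (IGF2, IGFBP3 and IGFBP4) and 3 below (JAK2, IGF1 and GHR), beside 16.9% above and 26.7% below over all genes, so the counts do not set the list apart. IGFBP4 had 127, 109 and 121 CPM, against 30.8, 45.8 and 75.8 CPM. GHR, the growth hormone receptor, had 22.2, 20.6 and 13.2 CPM, against 33.8, 56.4 and 96.4 CPM. The kinase JAK2, which signals from GHR, had a mean difference of -2.69.

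The liver markers were present, with members on both sides as for genes at large (16.9% above and 26.7% below). Of 20 hepatocyte markers, 4 were above in all 3 libraries and 3 below (medians 0.49, 0.58 and 0.63, against -0.28 to 0.25 in the 43), with ALB and APOB among those below. Of 19 liver endothelium markers, 5 were above and 2 below (medians 0.55, 1.05 and 0.89, against -0.80 to 0.50 in the 43). The endothelial genes PLVAP and EGFL7 were above the 43, PLVAP with 176, 298 and 249 CPM against 67.0, 96.9 and 145 CPM. EMCN and LYVE1, of the same cells, were below, LYVE1 with 17.8, 16.4 and 15.9 CPM against 25.3, 52.9 and 79.6 CPM.

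Macrophage and bile duct markers also lay on both sides. Of 20 Kupffer cell and macrophage markers, 6 were above and 3 below, beside 16.9% and 26.7% of all genes. CSF1R, the receptor for the macrophage growth factor, had 144, 227 and 208 CPM, against 48.7, 73.4 and 103 CPM. MRC1, the mannose receptor, had 50.1, 52.8 and 31.9 CPM, against 55.4, 162 and 262 CPM. Of 12 cholangiocyte markers, 3 were above, such as the anion exchanger SLC4A2 (mean difference 1.22), and 2 were below, such as EPCAM (-2.43).

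Few markers of other organs were measured. Of 10 intestinal markers measured, 1 was above in all 3 and 1 below. Of 5 pancreas markers, 0 were above or below. AMY2 and CTRL had a median under 1.61 CPM and a lowest of 0 CPM in the 43, so they could not fall below. Of all genes with a median of 1.61 CPM or less, 3.92% were above and 6.75% below in all 3. Of 7 adipocyte markers, 3 were above (CFD, PLIN1 and LIPE, at 2.84, 3.92 and 3.15 CPM for the lipid droplet gene PLIN1, against 0.320, 0.878 and 1.87 CPM). The adipocyte medians were 0.57, 0.38 and 1.11, against -0.33 to 0.31 in the 43. FABP4, also on that list, was at 0, 0.0530 and 0 CPM in pigs 38, 39 and 46. The 43 had 0, 0.716 and 3.04 CPM as the lowest, median and highest, so it could not lie below them. The airway gene SCGB1A1 was at 34.6 CPM in pig 46, above the highest of the 43 (27.2 CPM), and at 0.227 and 0.424 CPM in pigs 38 and 39.

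The interferon-response list had a median below the range of the 43 in pigs 38 and 39 and inside it in pig 46. The medians were -2.09, -2.05 and -0.76, against -1.8 to 1.77 in the 43, where the spread between piglets was wide. Of 38 genes, 11 were below in all 3 libraries, a share near the 26.7% of all genes, and 0 were above, beside 16.9% of all genes. EIF2AK2, the double-stranded RNA-dependent kinase, had 8.81, 7.94 and 7.00 CPM, against 37.2, 131 and 371 CPM. MX1, an antiviral GTPase, had 14.2, 12.9 and 112 CPM, against 7.79, 120 and 876 CPM. So EIF2AK2 was below the range in all 3 while MX1 was inside it in each.

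Each of the 3 libraries also had genes that left the range in it alone. Pig 38 was alone above at 174 genes and alone below at 119, pig 39 at 639 and 142, and pig 46 at 718 and 632. They were chosen by that pattern, so their values are a description. Those highest in pig 38 included red cell genes, those in pig 39 genes of lymphocytes and antigen presentation, and those in pig 46 heat shock and immediate early genes.

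In pig 38, SLC4A1, the anion exchanger of red cells, had 106 CPM, with 13.4 and 24.8 CPM in pigs 39 and 46 and 0.834, 11.9 and 87.2 CPM in the 43. SPTB and ANK1, of the red cell membrane skeleton, had 41.5 and 22.9 CPM in pig 38, against a highest of 38.5 and 17.4 CPM in the 43. The alpha-like globin gene HBM had 35 CPM, against a highest of 25.9 CPM. The erythroid list had medians of 1.47, 0.33 and 0.72 in the 3, all inside the -1.35 to 1.92 of the 43. The transferrin receptor gene TFRC, high in red cell precursors, went the other way, with 27.5, 10.4 and 3.31 CPM, against 34.8, 120 and 245 CPM.

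The genes low in pig 38 alone included enzymes of drug metabolism and fuel use. CYP3A22, a cytochrome P450, had 42.5 CPM, with 164 and 332 CPM in pigs 39 and 46 and 80.1, 241 and 1062 CPM in the 43. PDK4, a kinase that inhibits pyruvate oxidation, had 34.7, 40.8 and 41.1 CPM, against 34.8, 147 and 527 CPM, so that all 3 lay at the low end and pig 38 just outside it. Over 26 cytochrome P450 and conjugation genes the medians were -1.02, -0.48 and -0.25, against -0.68 to 0.31.

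In pig 39, PIGR, the epithelial carrier of immunoglobulin A, had 35 CPM, with 3.13 and 7.55 CPM in pigs 38 and 46 and 0.372, 2.72 and 32.6 CPM in the 43. SLA-DQA1, a class II antigen-presenting molecule, had 67.7 CPM, against a highest of 45.1 CPM, and SLA-DMA, which loads such molecules, had 34.4 CPM, against 21.4 CPM. The lymphocyte genes IL2RB, ITGAL and CTSW were above too, ITGAL with 74.7 CPM against a highest of 46.2 CPM. The list of T and NK cell genes had medians of -0.06, 0.64 and 0.24, inside the -0.28 to 0.73 of the 43.

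The lowest in pig 39 alone was CYP7A1, the rate-limiting enzyme of bile acid synthesis, with 0.742 CPM against 1.28, 15.4 and 141 CPM in the 43. Pigs 38 and 46, at 15.8 and 20.8 CPM, were near the median. CYP51 and SC5D, both of cholesterol synthesis, and ABCB4, the phospholipid carrier into bile, were below in it alone, CYP51 with 24.1 CPM against a lowest of 54.5 CPM.

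In pig 46, HSPA6, an inducible heat shock protein gene, had 1388 CPM, with 2.22 and 2.44 CPM in pigs 38 and 39. The 43 had 0.443, 1.12 and 65.8 CPM. HSP70.2, another inducible HSP70 gene, had 6635 CPM, with 227 and 73.0 CPM in pigs 38 and 39 and a highest of 401 CPM in the 43. DNAJB1, their co-chaperone, had 873 CPM, against 65.7 and 36.9 CPM in pigs 38 and 39 and a highest of 154 CPM. HSPA6 and HSP70.2 can share reads with close copies of the HSP70 family, so their split is uncertain.

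The immediate early genes, which respond within minutes to stress or growth signals, followed in pig 46. The list had medians of 0.55, 0.48 and 3.29, against -0.38 to 2.80 in the 43, the highest in pig 43. Of 20, 15 were above the 43 in pig 46, 1 in pig 39 and 0 in pig 38. Over all genes these shares were 29.6%, 30.9% and 22.4%. JUN had 614 CPM in pig 46, with 18.3 and 22.6 CPM in pigs 38 and 39 and 5.43, 10.5 and 244 CPM in the 43. FOS had 192 CPM, with 7.00 and 9.49 CPM and a highest of 152 CPM.

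The constitutive mitochondrial chaperones did not follow HSPA6. HSPD1 had 93.7, 63.9 and 97.1 CPM, against 252, 440 and 841 CPM in the 43, and HSPE1, its partner, had 25.5, 21.5 and 38.3 CPM, against 110, 161 and 224 CPM. In all 3 libraries both lay below the 43. The genes lowest in pig 46 alone included PEG10, an imprinted gene of the fetal liver (137 CPM, against a lowest of 416 CPM).

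**Figure D5:**
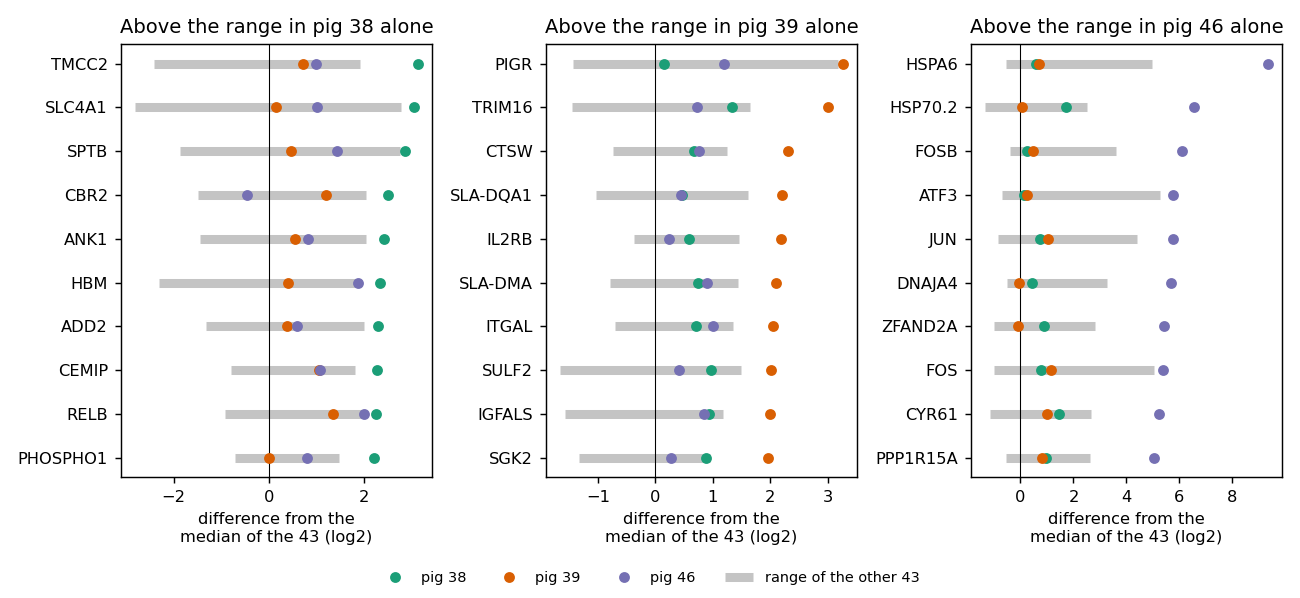
Difference of log2(CPM + 1) from the median of the 43 for the 10 named genes highest above the range in pig 38, in pig 39 or in pig 46 alone. Coloured points are the 3 libraries and grey bars the range of the other 43. The largest step is that of HSPA6 in pig 46, at 9.35.

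The group comparisons, as headed, called different numbers of genes with and without the 3 libraries, and the cause was not tested. The choice of the 3 did not use the group labels but did use the levels of the genes compared. The change in called genes on leaving them out is therefore a description, not independent support. All 4 groups were fitted together with edgeR's quasi-likelihood test and Benjamini-Hochberg adjustment, with all 46 libraries and without the 3. For IUGR untreated against normal untreated, 6 of 13780 genes passed an adjusted p of 0.05 with all libraries (0.0435%) and 199 of 13783 without the 3 (1.44%), including all 6. The contrast depended on the tool, since DESeq2 called 159 genes with all libraries and 393 without the 3. Of the 199, 40 were higher in IUGR and 159 lower. Without pig 38 alone the count was 2, without pig 39 alone 25 and without pig 46 alone 60.

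For IUGR treated against normal treated, 1 gene passed with all libraries (0.00726%) and 0 without the 3 (0%). At an unadjusted p of 0.05, 2301 genes passed with all libraries and 859 without the 3, and DESeq2 without the 3 called 8. Without pig 38 alone 1 gene passed, without pig 39 alone 0 and without pig 46 alone 0. The gene called with all libraries was COL27A1, a fibrillar collagen gene, with a log2 fold change of 0.97 ± 0.18 (SE) and an edgeR adjusted p of 0.0458 with all libraries, and 0.93 ± 0.19 and 0.0801 without the 3.

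For IUGR treated against IUGR untreated, 4 genes passed with all libraries (0.029%) and 9 without the 3 (0.0653%), with 3 in common. Without pig 38 alone 0 genes passed and 939 had an unadjusted p under 0.05, with 5 genes passing without pig 39 and 2 without pig 46. The 4 genes LRRC2, RTP3, ADH4 and LOC100518109 were higher in IUGR treated livers. ADH4, an alcohol dehydrogenase gene, had a log2 fold change of 2.90 ± 0.60 (SE) with all libraries (edgeR adjusted p = 0.05) and 2.99 ± 0.64 without the 3 (0.0458).

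For normal treated against normal untreated, which has none of the 3 libraries as headed, 0 genes passed with all libraries (0%) and 105 without the 3 (0.762%). At an unadjusted p of 0.05, 1176 and 2593 genes passed, and DESeq2 called 31 with all libraries. Of the 105, 23 were higher in treated and 82 lower. The same 23 normal libraries enter this comparison in both fits, and the fits differ in the spread estimated over all 4 groups, in scaling and in the filter. SLBP, which binds histone messenger RNA, had a log2 fold change of -0.49 ± 0.11 with all libraries (edgeR adjusted p = 0.123) and -0.48 ± 0.10 without the 3 (0.0322).

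The gene PPWD1, a peptidyl-prolyl isomerase of the spliceosome, was picked among those with the lowest p without the 3. A small SE there is partly set by that choice. Its log2 fold change in IUGR untreated against normal untreated was -0.69 ± 0.27 (SE, edgeR adjusted p = 0.266) with all libraries and -0.56 ± 0.09 (0.0013) without the 3. Genes called with all libraries in that contrast had no smaller SE without the 3, such as RTP3 (0.25 and 0.26) and DYNC1I1 (0.29 and 0.31). Each SE was the absolute log2 fold change divided by the square root of F. With limma voom and sample quality weights, the 3 libraries had weights of 0.0694 in pig 38, 0.0423 in pig 39 and 0.0351 in pig 46, against 0.668 to 2.18 in the 43. That fit kept all 46 libraries and called 167, 19, 117 and 783 genes in the 4 comparisons in the order given here. Each group comparison holds only if the headings are right.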

How the data were processed

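RNA from 46 piglet livers, 1 library a piglet, was sequenced. Per the study's methods reads were aligned to Sscrofa11.1 with Bowtie2, and the submitters' processing notes name DESeq2. No source used here names the counting program. The authors deposited 1 table of estimated counts per gene (expected counts, some not whole), not normalized. These were rounded to whole numbers for edgeR and DESeq2. All 46 columns matched a sample by pig number, and totals ran from 15036591 to 19340218 counts.

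Genes with 10 or more counts in at least 10 libraries were kept (13852 of 18440). CPM used each column's total, and differences used log2(CPM + 1) with a pseudocount of 1. Gene positions came from RefSeq, matched by gene ID for 18440 genes, of which 13637 kept genes lay on a chromosome. Gene span stood in for transcript length, and base composition was not analysed here.

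The study's comparisons were fitted over all 4 groups with edgeR 4.0.16 (TMM, filterByExpr, robust quasi-likelihood F test) in R 4.3.3, with DESeq2 1.42.0 and limma 3.58.1 as alternatives. The fit was tested on simulated data with the same spread for every gene and no atypical libraries. That test does not cover libraries such as the 3. Since litter is not given, littermates could not be matched, and p-values measure the spread between these piglets. The members, the 62 gene lists and the tests were chosen with earlier results of these data known. Genes were named by rule: the 15 highest and 15 lowest with all 3 outside the range, 10 each way for each library alone, 4 in each list by absolute mean difference, the 20 most abundant, and 10 that failed the filter. Other genes named in the text (such as NDUFB7, PSMD3, RPL8, FGA, LUC7L, SLBP and PPWD1) were chosen after their values were seen. A few genes that meet the rule are not reported here.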

Additional observations from a re-analysis of the deposited data

Results flagged for a closer look

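Within the 10 IUGR untreated libraries, the only group of 4 to 10, a value was singled out where its gap to the nearest library, divided by the range, passed Dixon's critical value. Chance gives about 1 in 20 such groups. Of 69 library measures 16 had such a library, and in 13 it was pig 38.

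For pig 38 these were its median r (0.851), its genes below the range (4190), the SD over all genes (1.09) and the gene density gap (1.34). The SDs within the ribosomal protein (1.32), proteasome (1.32), respiratory chain (1.30) and splicing (0.86) lists were the next. List medians were 0.53 for hepatocyte secreted proteins, -0.54 for heat shock, -1.28 for mitosis, -1.18 for splicing and 0.57 for adipocyte markers. Pig 38 was chosen by its median r, and the other measures come from the same levels, so that it stands out in them is set by that choice and is a description, not a test.

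In the other 3 measures the library was not one of the atypical ones. Pig 43 had a median of 2.80 for immediate early genes, pig 5 had 1.04 for TNF and NF-kappa B response genes, and pig 26 had -0.74 for liver endothelium markers. Of 306 named genes 108 had an outlying library, which was pig 38 in 93. Many of these genes were named because pig 38 or all 3 libraries lay outside the range, so this count too is set by the choice.

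Among the genes that failed the filter, 13 had 10 or more counts in all 3 libraries and all 3 above the highest of the 43. LOC100522201, on chromosome 9 of Sscrofa11.1 from 46308824 to 46310494, had 240 counts in pig 38, 413 in pig 39 and 582 in pig 46, against at most 115 in the 43, of which 37 were at 0.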

How the results depend on the processing

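The 3 libraries stood apart under each of the 6 alternatives run. Asking for a margin of 1 on the log2 scale left 0 genes above in all 3 and 1603 below. Leaving out 1 of the 3 gave 2507 to 3212 genes above and 3832 to 3965 below. The count of lists with medians outside the range, 7, was 8 to 12 on leaving out 1 library, 6 with TMM-adjusted totals, 5 with DESeq2 size factors and 8 with a pseudocount of 0.1. For library composition, the mean gene density gap of 1.62 was 2.14 over genes at a median of 10 CPM or more, an alternative chosen after seeing the data. Of 1836 alternative values for named genes 62 moved and 0 reversed, and of 330 for lists 30 moved and 0 reversed.

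Counts of called genes are given for IUGR untreated against normal untreated, IUGR treated against normal treated, IUGR treated against IUGR untreated, and normal treated against normal untreated, in that order. They were 6, 1, 4 and 0 with all libraries, and 199, 0, 9 and 105 without the 3. Leaving out 1 of the 3 gave 2 to 60, 0 to 1, 0 to 5 and 0 to 0. DESeq2 gave 159, 10, 23 and 31, and without the 3, chosen after seeing the data, 393, 8, 104 and 487. DESeq2 size factors in edgeR gave 2, 0, 0 and 0, no filter 2, 0, 4 and 0, and limma voom with quality weights 167, 19, 117 and 783. The causes were not tested. No analysis paired by litter was possible because the labels do not give the litter.

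With 3 libraries chosen on their values, and headings in doubt, group and library cannot be told apart. Totals were highest in pigs 39 and 46, and levels near 1 CPM rest on few counts.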

Other observations

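Circadian clock genes were not described above. Of 20 measured, 1 was above the 43 in all 3 libraries and 3 were below, beside 16.9% above and 26.7% below over all genes. The list medians (0.12, 0.20 and 0.09) lay inside the -0.36 to 0.28 of the 43. RORA, a nuclear receptor of the clock, had a mean difference of -3.14, and NR1D2, a repressor in the same loop, had -3.06. Of 31 extracellular matrix genes, 6 were above and 1 below, with the collagen genes COL5A1 and COL4A2 at a mean difference of 1.27 each and the matrix gene POSTN at -3.68. Of 19 NRF2 target genes, 5 were above and 5 below, and TXN, thioredoxin, had -3.63.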
